A study of Mus musculus with 59 samples.

Results

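The soleus libraries of the series compared mice carrying a melanoma that causes cachexia, the loss of body and muscle mass in cancer, with mice carrying a melanoma that does not. All 10 soleus libraries entered the comparison, out of 59 libraries in the series, and they were chosen by their labels (muscle and melanoma). The mice were female athymic nude animals (NCI Ath/nude), which lack most T cells, and were 4 months old. The 5 cachectic libraries came from mice with the patient-derived xenograft MAST360B/SJMEL030083_X2 in the flank, and the 5 non-cachectic libraries from mice with MAST552A/SJMEL031086_X1. Each condition is therefore 1 patient-derived xenograft, and the comparison is between 2 tumours, with no tumour-free group. The labels do not say whether these animals received the mock injections given in the diaphragm groups and do not say that the samples of a group are separate animals. The study states in general terms that its replicates in vivo came from separate animals, and p-values measure the spread between these samples. The readout was RNA-seq given as TPM, a transcript level corrected for transcript length that sums to the same total in each library. Values per library are given for the cachectic group first and the non-cachectic group second, each in the order of the deposited columns.

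The soleus is a postural calf muscle that bears load during standing. In the mouse it is built mainly of slow and fast-oxidative fibres, which are rich in mitochondria and burn fat. Loss of muscle in cachexia is known to involve faster protein breakdown by the ubiquitin-proteasome system and autophagy, driven by inflammatory cytokines such as interleukin-6 and by glucocorticoids. Fast glycolytic fibres are usually described as more prone to this loss than slow ones.

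The label was checked with the myosins. Myh7, the slow myosin, was at 6029, 5478, 7886, 5738 and 7848 TPM in the cachectic and 4407, 4288, 5313, 5166 and 5550.4 TPM in the non-cachectic libraries. Myh4, the myosin of the fastest fibres, was at 49.2, 4989, 69.8, 56.7 and 31.2 TPM against 7.34, 7.64, 12.1, 24.9 and 21.97 TPM. The libraries were thus slow-muscle libraries with Myh7 far above Myh4, except that the second cachectic library held almost as much Myh4 as Myh7. Its Myh4 was 71.5 times that of the next library. It also held 2357 TPM of Actn3, an actinin of fast fibres, against at most 34.03 TPM elsewhere, and 1695 TPM of the fast-fibre calcium buffer parvalbumin (Pvalb), against at most 63.1 TPM.

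The third cachectic library stood apart in another way. It lay farthest from its group on the first principal component (51.5 on that axis, against 7.49–24.1 for the other 4 cachectic and -27.2 to -21.9 for the non-cachectic libraries), an axis that held 50.3% of the variance. It also held the most complement factor D (Cfd), a protein made by fat cells, at 4129.5 TPM against at most 908 TPM elsewhere. The fifth cachectic library held the most T-cell and NK-cell transcripts (9 markers summing to 7.88 TPM, against at most 2.61 elsewhere). Liver transcripts summed to 25.7 and 86.7 TPM in the first and the second non-cachectic libraries and to at most 2.25 TPM in the rest. Counts are given below again without the second and the third cachectic library together, a choice made after the data were seen. The origin of these transcripts of single libraries and their part in the results were not tested.

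**Figure D1:**
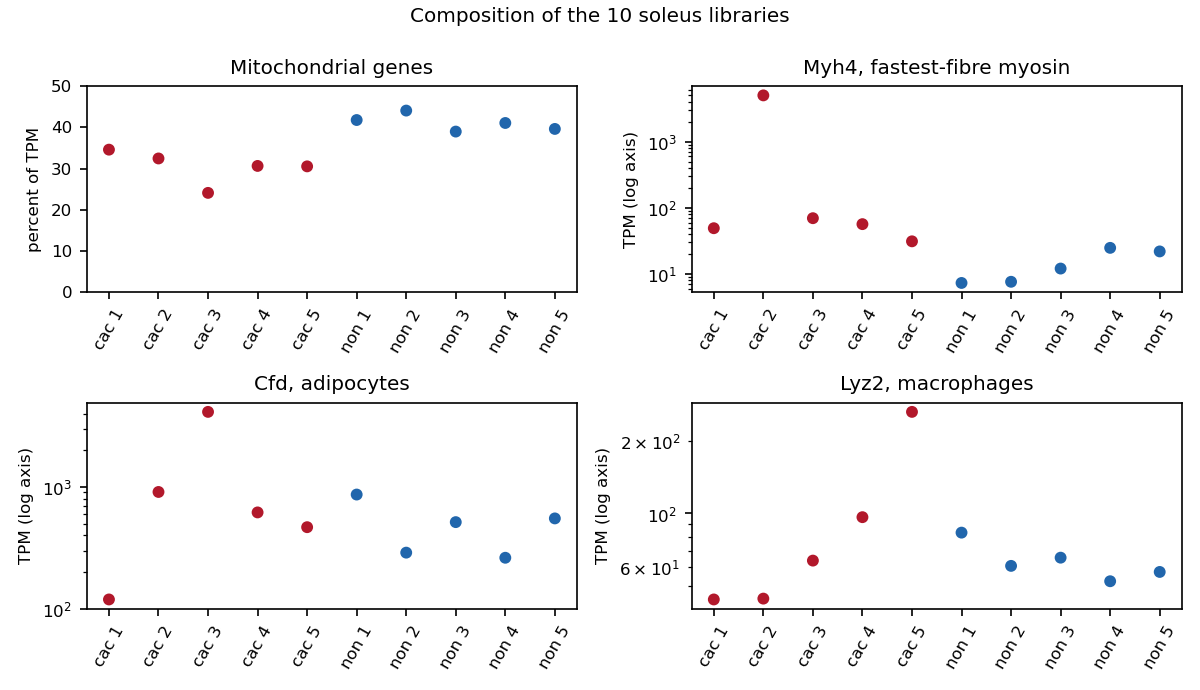
The share of TPM taken by mitochondrial genes (top left, percent) and the TPM of Myh4, Cfd and Lyz2 (log axes) in each of the 10 soleus libraries, with cachectic libraries in red and non-cachectic in blue, in the order of the deposited columns. The second cachectic library alone is high for Myh4 (4989 TPM), the third is high for Cfd, and Lyz2, a macrophage gene, is highest in the fifth (264 TPM).

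One transcript, Pcna-ps2, divided the soleus libraries in the same way as the melanoma and marked a block of genes in the diaphragm, so that in soleus this division and the melanoma cannot be told apart. Pcna-ps2, annotated as a pseudogene of the replication clamp PCNA, was at 8.69, 11.1, 11.6, 13.3 and 11.97 TPM in the cachectic and 0, 0.0436, 0, 0 and 0 TPM in the non-cachectic libraries. In the diaphragm the same gene split libraries within groups, and was at 1 TPM or more in 17 of 20 cachectic and 9 of 19 non-cachectic libraries. There, 404 genes differed between the high and the low libraries by at least 1 on the log2 scale within the groups (limma, adjusted p under 0.05). Of these, 229 were tested in soleus and 87 were called between the melanomas, while 142 were not, a share called of 37.99% beside 25.1% over all genes tested. Genes of this block, of which Cfd is one, are marked where they are named.

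Mitochondrial transcripts took a smaller share of the cachectic libraries. The 13 protein-coding genes of the mitochondrial genome, whose other 24 genes (ribosomal and transfer RNAs) are listed at 0 in all 10 libraries, made up 34.6, 32.4, 24.1, 30.6 and 30.5% of TPM in the cachectic and 41.8, 44.04, 38.96, 41.04 and 39.6% in the non-cachectic libraries, and the groups did not overlap. The means were 30.5% ± 3.92 and 41.1% ± 1.997 (SD, n = 5 each), a difference of -10.6 percentage points (exact permutation test, two-sided p = 0.00794, the smallest that 5 against 5 can give). Because TPM sums to a fixed total, a smaller mitochondrial share raises the TPM of all other genes, and for most gene lists the counts of members called are therefore also given after other scalings.

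Of 11957 genes with at least 1 TPM in 5 or more libraries, 2999 (25.1%) were called between the melanomas (limma on log2(TPM + 1), adjusted p under 0.05). 2098 (17.5% of the genes tested) were higher and 901 (7.54%) lower in cachectic soleus, so 69.96% of the calls were higher. The share of higher calls was 54.3% of 3350 after median-ratio scaling, 47.2% of 3316 after quantile normalization and 24.6% of 3714 when TPM was rescaled without the mitochondrial genes. That last scaling moved the median log2 fold change of all genes from 0.09 to -0.12, so the balance of higher and lower genes is not fixed by these data and small changes are given relative to the scaling. Changes of at least 1 on the log2 scale were called higher for 264 and lower for 146 genes. For 2180 of the 2999 genes called the groups did not overlap. Without the second and the third cachectic library 2190 genes were called, 1511 of them higher, and 1979 of the calls were shared.

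**Figure D2:**
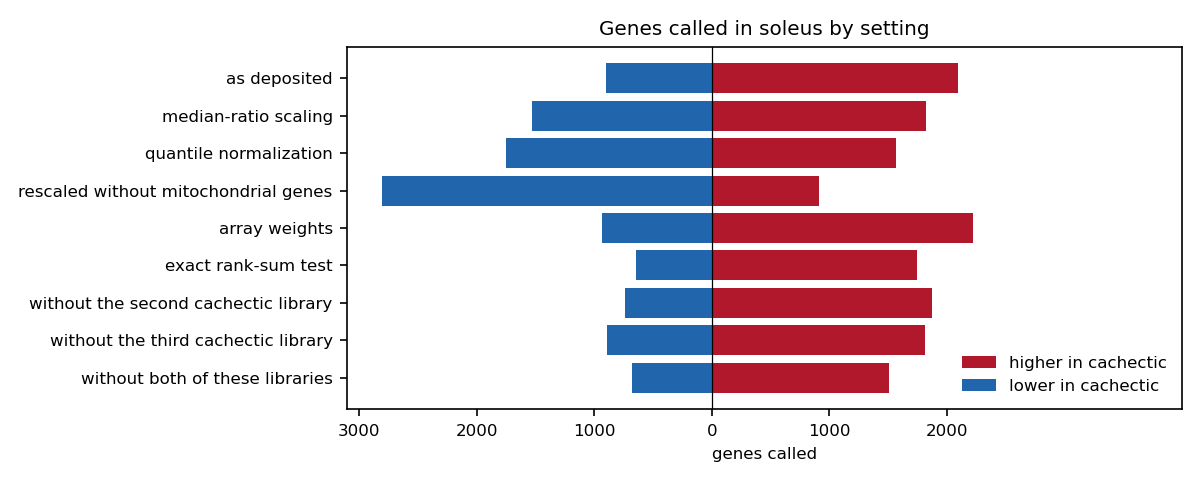
Number of genes called higher (red, to the right) and lower (blue, to the left) in cachectic soleus as deposited, after 3 other scalings, with 2 other tests, and without the libraries that stood apart. The sum of both bars stays between 2190 and 3714 genes while their balance moves with the scaling.

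The largest log2 fold change among called genes with a mean of at least 5 TPM was that of Mt2, one of the metallothioneins, small proteins that bind zinc and copper and are switched on by metals, glucocorticoids and inflammatory cytokines. Mt2 was at 121, 824, 1899, 386 and 236 TPM in the cachectic and 11.1, 18.2, 18.2, 13.9 and 17.2 TPM in the non-cachectic libraries (log2 fold change 4.76, SE 0.59, adjusted p 3.52e-04). Its neighbour Mt1 was at 193, 627, 1408, 337 and 219 TPM against 42.7, 56.9, 54.5, 43.5 and 60.3 TPM (log2 fold change 3.00, SE 0.45, adjusted p 0.00111). Neither gene overlapped between the groups, and in both the third cachectic library was highest and the first lowest of its group. Without the second and the third cachectic libraries the log2 fold changes were 3.76 and 2.22, both still called. Slc39a14 (ZIP14), a zinc importer of inflamed tissues, rose by 1.63 on the log2 scale (adjusted p 0.00485), to 9.31–48.7 TPM against 4.89–6.21 TPM. The vesicular zinc exporter Slc30a2 rose by 1.22 (adjusted p 7.77e-04). The exporters Slc30a1 and Slc30a4 had log2 fold changes of 0.00 and 0.19 and did not pass the test. Of the 9 metallothionein and zinc genes tested, 4 were higher and 0 lower (beside 17.5% and 7.54% of all genes tested), with a median log2 fold change of 0.87. Without the 2 libraries that stood apart 4 were higher and the median was 0.47.

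The promoters of Mt2, Mt1 and Socs3, a feedback inhibitor of interleukin-6 signalling described next, are shown because Mt2 and Mt1 rose most of the metal-binding genes and Socs3 is a textbook target of STAT3. Each window runs from 250 bases before the RefSeq transcription start to 50 bases into the transcript and is written 5′ to 3′ on the gene's strand (GRCm38.p6). Capitals mark the core of the metal response element (TGCACNC or TGCGCNC on either strand, N being any base) in Mt2 (chr8:94172368-94172667, + strand) and Mt1 (chr8:94178839-94179138, + strand). In Socs3 (chr11:117969317-117969616, - strand) they mark the STAT motif TTCNNNGAA, which is the same on both strands.
Mt2: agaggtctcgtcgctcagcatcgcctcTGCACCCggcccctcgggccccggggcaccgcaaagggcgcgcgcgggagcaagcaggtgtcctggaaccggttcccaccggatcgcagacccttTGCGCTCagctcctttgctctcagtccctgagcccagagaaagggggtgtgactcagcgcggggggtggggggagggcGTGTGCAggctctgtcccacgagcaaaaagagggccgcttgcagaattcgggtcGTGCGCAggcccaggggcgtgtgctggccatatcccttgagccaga
Mt1: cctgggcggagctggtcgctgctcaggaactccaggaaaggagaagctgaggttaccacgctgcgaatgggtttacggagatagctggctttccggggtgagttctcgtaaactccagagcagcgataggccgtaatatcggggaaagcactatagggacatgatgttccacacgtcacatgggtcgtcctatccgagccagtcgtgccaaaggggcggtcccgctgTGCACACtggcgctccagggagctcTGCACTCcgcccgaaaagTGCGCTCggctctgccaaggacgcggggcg
Socs3: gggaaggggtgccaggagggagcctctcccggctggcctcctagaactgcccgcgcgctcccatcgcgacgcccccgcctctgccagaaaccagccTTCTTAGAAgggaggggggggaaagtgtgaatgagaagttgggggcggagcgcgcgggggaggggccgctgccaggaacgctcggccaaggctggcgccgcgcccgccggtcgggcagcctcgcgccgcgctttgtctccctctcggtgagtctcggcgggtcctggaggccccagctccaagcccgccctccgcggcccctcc
The metal motif occurred 4 times in the Mt2 window and 3 times in the Mt1 window. At least 1 copy was found in 28.2% of all 27025 genes with a promoter in the table, and 4 or more copies in 0.588%. The STAT motif occurred 1 time in the Socs3 window and in 9.55% of all genes. Among genes called higher in soleus with a promoter in the table, 39.9% of 1575 held the metal motif and 8.13% the STAT motif, beside 40.7% and 8.33% of all genes tested. These are matches of letters and not bound sites.

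Most of the acute-phase and interleukin-6 pathway genes tested were higher. Interleukin-6 and its relatives bind receptors that share the subunit gp130 (Il6st) and act through STAT3, and the liver and muscle answer with acute-phase proteins. Of 23 such genes tested, 17 were higher and 2 lower (17.5% and 7.54% over all genes), with a median log2 fold change of 1.15 beside 0.09 over all genes. Without the second and the third cachectic libraries 15 were higher and 2 lower. At the level of receptors, Osmr, the oncostatin M receptor, rose to 5.80–12.5 TPM against 2.52–3.05 TPM (log2 fold change 1.34, adjusted p 2.75e-04). Il6st itself was at 58.2–76.2 and 56.4–64.1 TPM and did not pass the test (log2 fold change 0.12, adjusted p 0.330). Stat3 was at 45.01, 49.9, 72.1, 51.4 and 47.8 TPM in the cachectic and 21.2, 20.2, 24.2, 27.1 and 22.9 TPM in the non-cachectic libraries (log2 fold change 1.15, SE 0.13, adjusted p 1.74e-04), with no overlap. Socs3 was at 19.8, 23.7, 44.3, 26.3 and 15.8 TPM against 4.57, 2.45, 2.88, 2.66 and 3.43 TPM (log2 fold change 2.62, SE 0.23, adjusted p 4.27e-05), also with no overlap.

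Among the secreted products, Hp (haptoglobin, which binds free haemoglobin and is a gene of the block) was at 38.3, 485, 1386, 415 and 193 TPM in the cachectic and 18.02, 15.02, 19.8, 5.98 and 10.9 TPM in the non-cachectic libraries (log2 fold change 4.39, SE 0.75, adjusted p 0.00222). Serpina3n, an inhibitor of serine proteases, was at 52.2, 152, 784, 111 and 82.5 TPM against 7.49, 11.3, 10.7, 10.2 and 10.1 TPM (log2 fold change 3.72, SE 0.56, adjusted p 0.00113). Every cachectic library exceeded every non-cachectic one for both genes, and the third cachectic library was the highest for both. Without the second and the third cachectic libraries the log2 fold changes were 3.40 (adjusted p 0.00779) and 2.87 (adjusted p 6.50e-05). Lrg1, a glycoprotein of the acute phase, rose by 2.39 on the log2 scale, to 33.7–234 TPM against 10.9–15.7 TPM. Lcn2 (lipocalin 2), which binds bacterial iron carriers, rose by 2.38 (adjusted p 0.00835) at low levels of 2.22–27.3 TPM against 0.259–0.552 TPM. The serum amyloid genes Saa1 and Saa2, which share reads as near-identical copies, lay below the filter and reached 9.77 and 5.53 TPM in the third cachectic library.

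**Figure D3:**
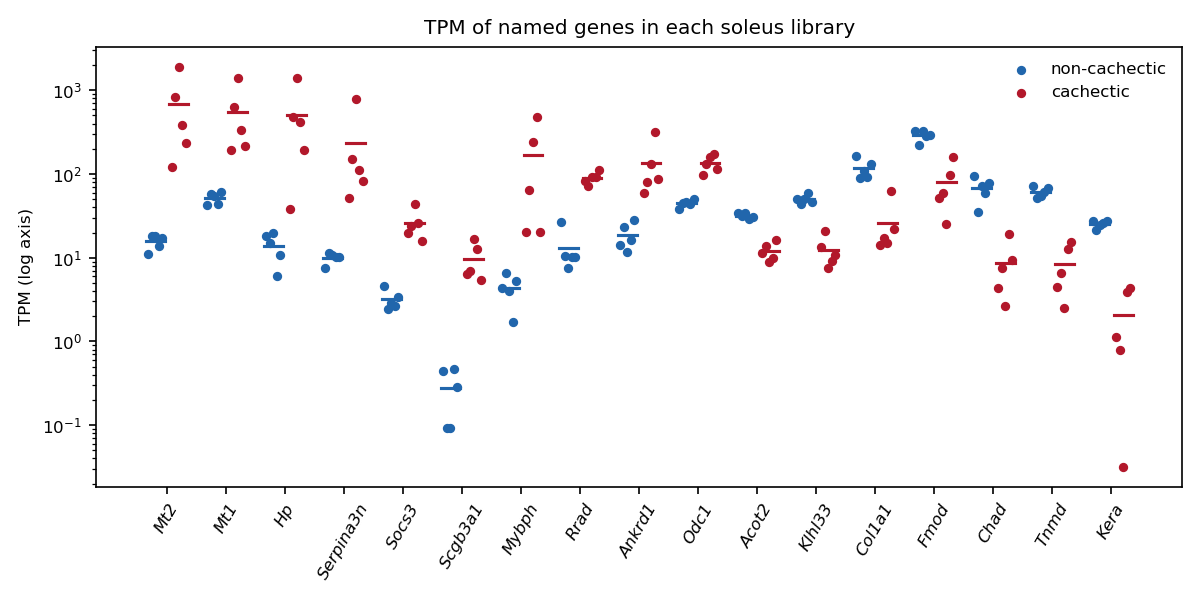
TPM of 17 named genes (log axis) in each of the 10 soleus libraries, non-cachectic in blue at left and cachectic in red at right of each gene, with a bar at the group mean. The groups do not overlap for any of the genes shown, nor for 2180 of all 2999 genes called. The cachectic libraries spread over more than 10-fold for Mt2, Hp, Serpina3n, Mybph and Kera.

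Genes switched on by glucocorticoids, the stress hormones that promote muscle loss, were higher in part. Of the 23 tested, 14 were higher and 0 lower (17.5% and 7.54% over all genes), with a median log2 fold change of 0.73. The other scalings gave 13, 12 and 12 higher and 1, 2 and 3 lower, and without the libraries that stood apart 12 were higher and 1 lower. The arrestin-like Arrdc2 was at 21.4, 59.3, 27.9, 34.1 and 12.2 TPM against 6.29, 8.68, 5.80, 3.28 and 2.25 TPM (log2 fold change 2.28, SE 0.39, adjusted p 0.00216). Cebpd, a transcription factor of the acute phase, rose to 16.2–56.6 TPM against 4.36–7.34 TPM (log2 fold change 2.10, adjusted p 6.73e-04). Ddit4 (REDD1), which restrains mTORC1, rose to 53.2–129 TPM against 12.6–26.2 TPM (log2 fold change 1.94, adjusted p 4.41e-04). Hsd11b1, the enzyme that regenerates active glucocorticoid within cells and a gene of the block, rose by 1.86 (adjusted p 0.00119). Pdk4, which blocks pyruvate entry into the citrate cycle, and Txnip, an inhibitor of thioredoxin, are the most abundant of the list and did not pass the test, at 137–511 against 331–658 TPM and 275–589.7 against 196–808 TPM. For both the groups overlapped, and without the libraries that stood apart Pdk4 was called lower (-1.18, adjusted p 0.0359).

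The study named 8 genes for this melanoma model, chosen on its diaphragm samples. In soleus 5 were higher and 1 lower (17.5% and 7.54% over all genes). Scgb3a1, a small secreted protein of the secretoglobin family, was at 6.37, 6.95, 16.7, 12.7 and 5.39 TPM in the cachectic and 0.449, 0.0917, 0.0934, 0.473 and 0.283 TPM in the non-cachectic libraries (log2 fold change 2.95, SE 0.26, adjusted p 3.97e-05). The glucocorticoid-induced transcription factors Zbtb16 and Klf15 rose by 0.91 and 0.55 (adjusted p 0.00513 and 0.00909), the call of Klf15 being lost when TPM was rescaled without mitochondrial genes, and Arrdc2 and Ddit4 rose as given above. Capza1, a subunit of the protein that caps actin filaments, was at 4.92, 5.34, 7.83, 6.91 and 6.79 TPM against 19.7, 18.2, 17.3, 17.9 and 20.1 TPM and fell by 1.43 on the log2 scale (adjusted p 1.92e-05). Its groups did not overlap. Klhl38, a kelch protein, and Tnni1, the slow troponin I, overlapped between the groups and had log2 fold changes of -0.06 and 0.29 (adjusted p 0.878 and 0.117).

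Fibcd1, whose effect on muscle fibres is the subject of the study, was below the filter in soleus. It was at 0.0236, 0.134, 0.131, 0.103 and 0.106 TPM in the cachectic and 0.226, 0.0692, 0.106, 0.190 and 0.273 TPM in the non-cachectic libraries, and was not tested. Of 7 candidate integrin receptors tested, 3 were higher and 1 lower (17.5% and 7.54% over all genes), or 2 and 0 without the libraries that stood apart. Itga5, the fibronectin-binding integrin α5, was at 37.3, 40.9, 75.9, 58.4 and 37.2 TPM against 15.7, 17.01, 17.9, 12.9 and 18.8 TPM (log2 fold change 1.497, SE 0.19, adjusted p 4.41e-04), without overlap. Itga7 and Itgb1, which form the laminin receptor of muscle fibres, rose by 0.64 and 0.51 (adjusted p 0.00706 and 0.0216), Itgb1 with overlap and with a call that was lost without the libraries that stood apart (adjusted p 0.0699). Itgav fell by 0.45 (adjusted p 0.0464, and 0.178 without those libraries). Itga2b was at 0.788–1.72 and 0.944–1.21 TPM and did not pass the test (adjusted p 0.795).

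Other inflammatory genes were called in part, beside 17.5% higher and 7.54% lower over all genes tested. Of 22 interferon-response genes 0 were higher and 0 lower by limma, 4 had an unadjusted p under 0.05, and the exact rank-sum test called 0. Of 20 chemokines listed, 9 passed the filter and 3 were higher. Cxcl14, a chemokine made by fibroblasts and muscle, was at 42.6, 35.3, 79.5, 96.2 and 60.6 TPM against 27.8, 18.01, 23.7, 20.3 and 20.3 TPM (log2 fold change 1.39, SE 0.24, adjusted p 0.00261). Ccl8, a monocyte attractant and a gene of the block, rose by 2.02 (adjusted p 0.0101), and the myeloid chemokine Ccl6 by 0.82 (adjusted p 0.0439, and 0.141 without the libraries that stood apart). Cxcl13, a B-cell attractant below the filter that was named after its values were seen, was at 0.877, 8.13, 35.6, 3.26 and 10.97 TPM in the cachectic and 0.140, 0.286, 0.194, 0.147 and 0.0490 TPM in the non-cachectic libraries, which did not overlap. Among complement genes 5 of 15 were higher and 0 lower, with 2 higher after rescaling without mitochondrial genes and 1 without the libraries that stood apart. C4b rose to 13.8–97.5 TPM against 9.59–12.1 TPM (log2 fold change 1.88, adjusted p 0.00499, and 0.0204 without them).

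Of the markers of blood-derived cells, 2 of neutrophils and 1 of macrophages were called, where 25.1% of all genes tested were called. Macrophage markers summed to 84.9–500.1 TPM in the cachectic and 112–166 TPM in the non-cachectic libraries, and 1 of 9 was called. That marker was Cd68, a lysosomal protein of macrophages, which was at 9.54, 26.5, 74.7, 80.8 and 12.5 TPM against 6.70, 6.06, 7.73, 4.59 and 8.42 TPM (log2 fold change 1.99, adjusted p 0.0176, and 0.0806 without the libraries that stood apart). Lyz2, the most abundant of them, was at 43.98–264 against 52.3–83.3 TPM, highest in the fifth cachectic library, and did not pass the test (adjusted p 0.588). Of 11 neutrophil markers, S100a8 and S100a9 passed the filter and both rose, by 1.52 and 1.51 (adjusted p 0.0197 and 0.00290), S100a9 being a gene of the block and S100a8 losing its call without the libraries that stood apart (adjusted p 0.0625). Their sum with the other 9 was 8.65–34.2 TPM against 3.55–5.57 TPM. The other 9 were below the filter. Among them Cxcr2, a chemokine receptor of neutrophils, was at 0.147–0.430 against 0.0733–0.126 TPM without overlap. Csf3r, the G-CSF receptor, was at 0.543–1.49 against 0.294–0.565 TPM, Retnlg at 0.202–1.75 against 0.0926–0.631 TPM and Ngp at 0–0.117 against 0 TPM in every library. Ly6g, Mpo and Elane, also among these 9, were at 0.543 TPM or less in every library. None of the 9 T-cell and NK-cell markers passed the filter, and 0 of 4 B-cell, 0 of 5 red-cell and 0 of 3 melanocyte markers were called by limma or by the exact rank-sum test, with 1, 0 and 0 at an unadjusted p under 0.05. Below the filter, the T-cell marker Cd8a was at 0.0308–1.30 against 0–0.0151 TPM without overlap. The B-cell markers Cd79b (0.172–0.391 against 0.421–1.64 TPM) and Ms4a1 (0–0.03475 against 0.0455–0.104 TPM) were lower without overlap. The other T-cell, NK-cell and B-cell markers below the filter overlapped. In tissue RNA, fewer cells of a type and less RNA per cell cannot be told apart.

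Protein breakdown genes were higher mainly in the proteasome, the barrel-shaped protease that degrades ubiquitin-tagged proteins. Of 31 subunits 29 were higher and 0 lower (17.5% and 7.54% over all genes), with a median log2 fold change of 0.49. Under median-ratio scaling, quantile normalization and rescaling without mitochondrial genes 26, 22 and 20 were higher and 0 lower. Psmd8, a subunit of the regulatory lid, was at 122, 160.3, 192, 148 and 93.5 TPM against 58.8, 65.5, 71.3, 63.05 and 76.8 TPM (log2 fold change 1.05, SE 0.17, adjusted p 0.00153). Psma7, of the core particle, rose to 78.1–111 TPM against 51.7–54.6 TPM (log2 fold change 0.80, adjusted p 3.11e-04), and Psmd4, the ubiquitin receptor, by 0.78. The groups did not overlap for any of the 3.

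The ubiquitin ligases of muscle atrophy changed unevenly. Of 22 tested, 6 were higher and 0 lower as deposited (beside 17.5% and 7.54% of all genes tested), while 2 were higher and 4 lower after rescaling without mitochondrial genes. Trim63 (MuRF1), which tags thick-filament proteins, was at 147, 598, 234, 160.2 and 175 TPM against 114, 108, 117, 122 and 129 TPM (log2 fold change 0.93, SE 0.31, adjusted p 0.0493). The groups did not overlap and the second cachectic library was far above the rest. Without it and the third the log2 fold change was 0.44 (adjusted p 0.00697), and the call over all 10 libraries was lost after median-ratio scaling (adjusted p 0.0813). Fbxo32 (atrogin-1) was at 122, 310.2, 95.6, 104 and 143 TPM against 149.7, 173, 175, 182 and 167 TPM and did not pass the test (log2 fold change -0.27, adjusted p 0.479). In 4 of the 5 cachectic libraries Fbxo32 was below every non-cachectic one, the exception being the second, and without the second and the third libraries it was called lower (-0.47, adjusted p 0.0152). Fbxo31, another F-box protein, rose by 1.07 and Fbxo40, which targets IRS1, by 0.59 (adjusted p 0.00211 and 0.0137), Fbxo40 losing its call when TPM was rescaled without mitochondrial genes (adjusted p 0.0705). Among autophagy and lysosomal genes 8 of 22 were higher and 1 lower as deposited (17.5% and 7.54% over all genes), against 2 and 5 without mitochondrial genes. Map1lc3a, one of the LC3 proteins that coat autophagosomes, rose to 303–746 TPM against 177–219.97 TPM (log2 fold change 1.09, adjusted p 0.00404). The cathepsins Ctsz and Ctsd rose by 0.56 and 0.47, calls that this last rescaling ended (adjusted p 0.109 and 0.0517). Of the 15 genes the study named for a lung carcinoma model, 10 were tested and 3 were higher (Trim63, Ctsz and the endosomal sorting protein Hgs). The share higher over all genes was 17.5%, and 0 of the 10 were higher after rescaling without mitochondrial genes. The study named Trim63 and Fbxo32 as ligases without significant induction in that model.

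Ribosomal genes were higher too. Of 33 cytosolic ribosomal proteins tested, 32 were higher and 0 lower (17.5% and 7.54% over all genes), with a median log2 fold change of 0.61. After the 3 other scalings 32, 27 and 28 were higher, and 0 lower. Rpl3, which adult muscle largely replaces by its paralogue Rpl3l, was at 90.6, 96.1, 209, 163 and 95.9 TPM against 56.6, 46.5, 50.7, 44.2 and 52.9 TPM (log2 fold change 1.28, SE 0.22, adjusted p 0.00206). Rpl3l, looked up after the value of Rpl3 was seen, was at 221–409.7 against 406–438 TPM (log2 fold change -0.31, adjusted p 0.140). Rpl13a and Rpl14 rose by 0.76 and 0.73. Ribosomal proteins have many processed pseudogenes, with which reads could be shared. In the insulin, IGF1 and mTOR list 9 of 25 genes were higher and 2 lower (17.5% and 7.54% over all genes), with 4 higher after rescaling without mitochondrial genes and 5 without the libraries that stood apart. Igfbp5, an IGF-binding protein of muscle, was at 47.5, 49.2, 35.6, 84.7 and 69.5 TPM against 202, 140, 181, 199.8 and 158 TPM, and fell by 1.66 on the log2 scale (SE 0.21, adjusted p 3.67e-04). Igfbp3, which carries IGFs in blood, rose by 1.54 (adjusted p 0.00352). Eif4ebp1, a repressor of translation that mTORC1 inactivates, rose by 0.95 (adjusted p 0.0215).

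Among polyamine and amino acid genes a minority were called, some higher and some lower. Odc1, the rate-limiting enzyme of polyamine synthesis, was at 98.4, 131, 161, 173 and 114 TPM against 37.7, 44.6, 45.9, 44.3 and 49.7 TPM (log2 fold change 1.56, SE 0.15, adjusted p 5.91e-05). Sat1, which starts polyamine breakdown, rose as well, by 0.86 (adjusted p 0.00186), and 2 of 13 polyamine genes were higher and 2 lower (2 and 4 after rescaling without mitochondrial genes, beside 17.5% and 7.54% of all genes as deposited). Glul (glutamine synthetase) rose to 299–642 TPM against 145–207 TPM (log2 fold change 1.27, adjusted p 9.18e-04), and Slc3a2, the heavy chain of large amino acid transporters, to 30.7–69.2 TPM against 14.8–16.5 TPM. In all, 3 of 23 amino acid genes were higher and 4 lower (17.5% and 7.54% over all genes), with a median of 0.01, and 7 and 8 were lower after quantile normalization and after rescaling without mitochondrial genes. In the integrated stress and unfolded protein list, 5 of 25 were higher and 2 lower, shares near those over all genes tested (17.5% and 7.54%), and 4 and 5 after rescaling without mitochondrial genes. The stress-induced factor Atf3 rose by 1.80 (adjusted p 0.00624) while Atf5 and Nupr1, which are also induced by this pathway, fell by 0.68 and 1.02 (adjusted p 0.00892 and 3.56e-04), Atf5 missing the threshold without the libraries that stood apart (adjusted p 0.0541). Atf4 itself was at 224–316 against 203–253 TPM and did not pass the test.

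Of 14 slow-fibre genes 3 were higher as deposited (beside 17.5% of all genes tested), and 0 and 0 after median-ratio scaling and without mitochondrial genes. Of 15 fast-fibre genes 1 was lower (beside 7.54% of all genes tested), the calcium store protein Casq1 (log2 fold change -0.40, adjusted p 0.0233, and 0.0608 without the libraries that stood apart). Myh2, the myosin of fast-oxidative fibres, was at 2699, 1516, 4013, 2069 and 1446 TPM against 3635, 3145, 3039, 2087 and 2079.9 TPM, and Myh1, that of the next faster fibres, at 230.2, 412, 1045, 250.97 and 116 TPM against 513, 139, 83.2, 497 and 132 TPM. Both overlapped between the groups (adjusted p 0.419 and 0.536). Myh4 was higher in each cachectic than in each non-cachectic library but did not pass the test over all 10 (log2 fold change 3.17, SE 1.15, adjusted p 0.0635). Without the second and the third cachectic libraries it did (1.68, adjusted p 0.0175). Myh7 was called higher with overlap (0.41, adjusted p 0.0498), a call lost without those libraries (adjusted p 0.0645) and after median-ratio scaling (adjusted p 0.0926).

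Of 11 genes of embryonic muscle and regeneration 3 were higher and 0 lower (17.5% and 7.54% over all genes), and 1 was lower after each of the other scalings. Myog, the transcription factor of myoblast differentiation that is also induced by denervation, was at 56.95, 30.9, 58.7, 62.8 and 49.7 TPM against 11.4, 20.5, 24.96, 15.4 and 25.5 TPM (log2 fold change 1.38, SE 0.24, adjusted p 0.00228). Its relative Myf6 rose to 184–323 TPM against 78.4–90.6 TPM (log2 fold change 1.45, adjusted p 6.25e-05). The perinatal myosin Myh8, a gene of the block, rose to 42.2–81.1 TPM against 2.74–17.1 TPM, while the embryonic myosin Myh3 and the fetal actin Actc1, also of the block, did not pass the test (adjusted p 0.411 and 0.518). Among junction and denervation genes 4 of 19 were higher and 2 lower, against 1 and 5 after rescaling without mitochondrial genes (beside 17.5% and 7.54% of all genes tested as deposited). The acetylcholine receptor subunit Chrnb1 rose by 0.89 and the receptor kinase Musk by 0.71 (adjusted p 0.00773 and 0.0211, Musk with overlap and 0.0659 without the libraries that stood apart), while Hdac4, a repressor that links denervation to Myog, fell by 0.57 (adjusted p 0.0138). Schwann cell markers summed to 93.1–410.2 TPM in the cachectic and 95.6–169 TPM in the non-cachectic libraries, and 0 of 9 were called by limma or by the exact rank-sum test (1 at an unadjusted p under 0.05), while 2 were called lower without the libraries that stood apart.

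Genes that respond to mechanical load and remodel the sarcomere were mostly higher. They encode proteins of the Z-disc, the M-band and the ends of the fibre that rise when muscle is stretched, loaded or damaged. Of 20 tested, 17 were higher and 0 lower (17.5% and 7.54% over all genes), with a median log2 fold change of 0.84. The other scalings gave 15, 11 and 12 higher and at most 1 lower, and without the libraries that stood apart 14 were higher. Mybph, a myosin-binding protein, was at 20.1, 63.9, 243, 485 and 20.6 TPM against 4.40, 6.64, 3.98, 1.72 and 5.25 TPM (log2 fold change 3.99, SE 0.79, adjusted p 0.00452). Rrad, a small GTPase that inhibits calcium channels, was at 82.8, 72.2, 92.7, 91.2 and 111 TPM against 26.7, 10.5, 7.55, 10.2 and 10.2 TPM (log2 fold change 2.81, SE 0.26, adjusted p 5.46e-05). Ankrd1 (CARP), a titin-bound strain sensor, was at 58.97, 80.2, 133, 317 and 87.1 TPM against 14.4, 23.5, 11.6, 16.2 and 28.2 TPM (log2 fold change 2.58, SE 0.40, adjusted p 0.00126). None of these overlapped, and the fourth cachectic library was the highest for Mybph and Ankrd1 while the fifth was the highest for Rrad. Csrp3 (muscle LIM protein) rose to 735–3316 TPM against 281–515 TPM and Ankrd2 to 2444–5316 TPM against 862–1464 TPM (log2 fold change 1.94 and 1.74), and the actin-binding Xirp1 and Flnc by 1.75 and 1.18. Tcap (telethonin), the most abundant of the list, was at 8047–9779.8 against 8059–10507 TPM and did not pass the test (adjusted p 0.971).

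Structural genes of the fibre and chaperones were higher in part. Desmin (Des), the intermediate filament that ties Z-discs together, was at 4176, 5098, 10055, 5402 and 4607 TPM against 1916, 1580.5, 1692, 2035 and 1639 TPM (log2 fold change 1.66, SE 0.21, adjusted p 3.75e-04), without overlap. In its list of titin, nebulin and thick-filament genes 7 of 16 were higher and 1 lower as deposited (17.5% and 7.54% over all genes), but 1 and 2 after rescaling without mitochondrial genes. Of 21 heat shock proteins 9 were higher and 1 lower (17.5% and 7.54% over all genes), against 7 and 4 without mitochondrial genes. The small heat shock proteins Hspb1 and Hspb7 reached 600.1–3050.1 and 3631–7340.2 TPM and rose by 1.63 and 1.16 on the log2 scale (adjusted p 0.00749 and 0.00293). Cryab (αB-crystallin), which protects desmin, rose by 0.84 (adjusted p 0.00947). The inducible Hsp70 genes Hspa1a and Hspa1b rose by 1.05 and 1.09. They are near-identical copies whose reads could be split between them.

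Among calcium genes 10 of 26 were higher and 2 lower (17.5% and 7.54% over all genes), with 5 and 2 after rescaling without mitochondrial genes. Sarcolipin (Sln), a small inhibitor of the calcium pump SERCA, was at 1076, 859.9, 1938, 2239 and 1348 TPM against 462, 307, 544, 569 and 476 TPM (log2 fold change 1.60, SE 0.26, adjusted p 0.00168). Every cachectic library exceeded every non-cachectic one. Cacng1, the γ1 subunit of the calcium channel, rose to 161–706 TPM against 81.5–115 TPM (log2 fold change 1.67, adjusted p 0.00517), and Rcan1, a calcineurin target, by 0.90. The pumps themselves, Atp2a1 (fast) and Atp2a2 (slow), did not pass the test (log2 fold change 0.17 and 0.08). Of 18 p53, p21 and Gadd45 genes, 6 were higher and 2 lower (17.5% and 7.54% over all genes), against 3 and 2 after rescaling without mitochondrial genes and 2 and 1 without the libraries that stood apart. Cdkn1a (p21), an inhibitor of the cell cycle, rose to 39.1–100.2 TPM against 17.2–23.3 TPM (log2 fold change 1.55, adjusted p 5.47e-04), and Sesn1 by 0.83, while the p53 target Ccng1 fell by 0.49 (adjusted p 0.0219, and 0.0634 without the libraries that stood apart). Antioxidant genes gave 5 higher and 2 lower of 20 (17.5% and 7.54% over all genes), against 2 and 5 without mitochondrial genes, with Sod1 higher by 0.54 and catalase (Cat) lower by 0.47 as deposited.

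**Figure D4:**
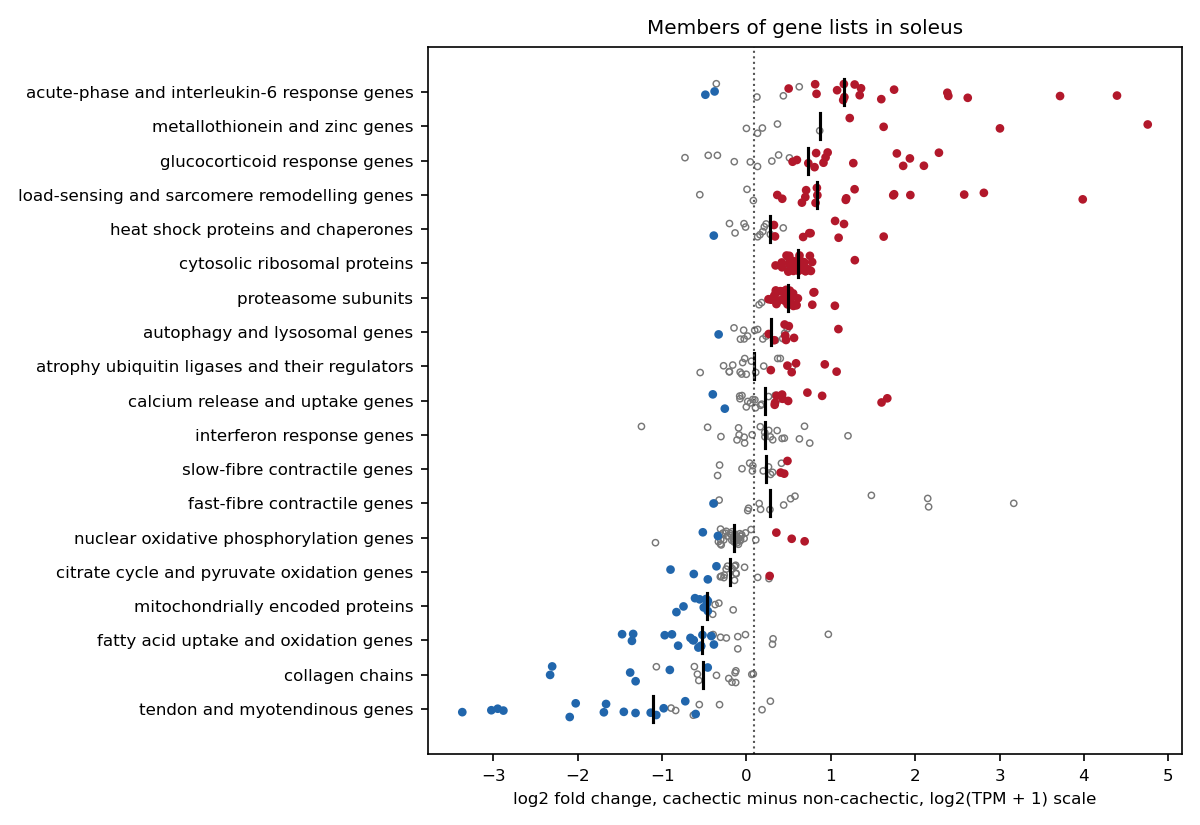
Log2 fold change of each tested member of 19 gene lists in soleus, filled red where called higher, filled blue where called lower and open grey where not called. The black bar is the list's median and the dotted line the median over all genes tested (0.09). Acute-phase, load-sensing, ribosomal and proteasome genes lie mostly to the right, and tendon, collagen and fatty acid genes mostly to the left.

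Of the 15 lowest log2 fold changes of called genes with a mean of at least 5 TPM, 6 were those of genes of tendon and the muscle-tendon junction. Tendons join muscle to bone, and their cells make a collagen matrix with small leucine-rich proteoglycans and cartilage-like proteins. The study's methods describe freeing the diaphragm of tendon and give no such step for soleus. Of 22 such genes tested, 0 were higher and 15 lower (beside 7.54% lower over all genes tested), with a median log2 fold change of -1.10. The other scalings gave 16, 17 and 18 lower and 0 higher, and 12 of 22 were lower without the libraries that stood apart. Kera (keratocan), a proteoglycan, was at 1.12, 0.799, 0.0320, 3.94 and 4.34 TPM in the cachectic and 27.3, 21.5, 24.3, 25.8 and 27.2 TPM in the non-cachectic libraries (log2 fold change -3.37, SE 0.38, adjusted p 2.17e-04). Chad (chondroadherin), a matrix protein of cartilage and tendon, was at 4.30, 7.52, 2.68, 19.03 and 9.38 TPM against 94.9, 35.1, 72.01, 59.7 and 78.9 TPM (log2 fold change -3.02, SE 0.41, adjusted p 5.73e-04). Tenomodulin (Tnmd), the marker of mature tendon cells, was at 4.43, 6.65, 2.54, 12.6 and 15.3 TPM against 72.5, 51.7, 54.1, 60.2 and 67.4 TPM (log2 fold change -2.95, SE 0.35, adjusted p 2.80e-04). In all 3 the groups did not overlap, the third cachectic library was the lowest, and the fourth and the fifth were the highest of the cachectic group.

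Cilp2, a cartilage matrix protein, was at 0.675, 1.12, 0.203, 2.07 and 1.46 TPM against 19.1, 9.53, 12.03, 13.2 and 16.8 TPM (log2 fold change -2.88, adjusted p 3.38e-05). Fmod (fibromodulin), which organises collagen fibrils, fell to 25.5–161 TPM against 224–323 TPM (log2 fold change -2.09, adjusted p 0.00291). Comp, a thrombospondin of tendon, fell to 5.04–33.1 TPM against 41.3–67.6 TPM (log2 fold change -2.02, adjusted p 0.00617). The tendon transcription factor Mkx fell by 1.07 (adjusted p 0.00236) at 0.509–1.86 against 2.39–4.28 TPM, while Scx, the other one, was at 18.5–31.8 against 15.9–21.2 TPM and did not pass the test (adjusted p 0.168). Thbs4, a thrombospondin and the most abundant member after Fmod, overlapped between the groups as well (adjusted p 0.103).

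Collagens and other matrix genes fell in part. Of 18 collagen chains 0 were higher and 6 lower (17.5% and 7.54% over all genes), with a median of -0.51, and of 25 matrix proteins, cross-linkers and proteases 1 was higher and 8 were lower. Without the libraries that stood apart 5 collagens and 2 matrix genes were lower. After rescaling without mitochondrial genes 10 and 13 were lower, and the exact rank-sum test called 3 and 0 lower. Col1a1, the main chain of type I collagen, was at 14.1, 17.1, 14.97, 62.1 and 22.2 TPM against 164, 89.9, 109, 91.5 and 132 TPM (log2 fold change -2.33, SE 0.35, adjusted p 0.00110). Its partner Col1a2 was at 10.6, 14.9, 11.3, 48.2 and 24.1 TPM against 131, 78.1, 92.6, 74.97 and 109 TPM (log2 fold change -2.30, SE 0.35, adjusted p 0.00119). For both, the fourth cachectic library was the highest of its group and still below every non-cachectic one. The type VI chains Col6a1 and Col6a2 fell by 1.31 and 1.38, and the basement membrane chains Col4a1 and Col4a2 had log2 fold changes of -0.12 and 0.08 and did not pass the test. Postn (periostin) and Fn1 (fibronectin) fell by 1.44 and 1.23 (adjusted p 0.0118 and 0.0142), calls that were lost without the libraries that stood apart (adjusted p 0.0702 and 0.0807).

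Fibroblast markers summed to 714–1616 TPM in the cachectic and 1244–1634 TPM in the non-cachectic libraries, and 1 of 11 was higher and 3 were lower, with 6 lower after rescaling without mitochondrial genes and 0 without the libraries that stood apart (beside 17.5% and 7.54% over all genes as deposited). Ly6a (Sca-1), a surface marker of fibro-adipogenic progenitors and endothelium, rose to 148–293 TPM against 58.3–147 TPM (log2 fold change 1.14, adjusted p 0.00536). Dcn (decorin) and Lum (lumican), proteoglycans of fibroblasts and tendon, fell by 0.72 and 1.13 (adjusted p 0.0465 and 0.0380, and 0.223 and 0.201 without those libraries). Endothelial markers summed to 273–473 against 264–329 TPM, with 2 of 11 higher and 1 lower (17.5% and 7.54% over all genes), and 1 and 2 after each of the other scalings. Vwf (von Willebrand factor) was higher by 0.77 and the VEGF receptor Kdr lower by 0.59 (adjusted p 0.00390 and 0.00919). Adipocyte markers summed to 5725–8677 against 2483–6809.7 TPM, and 1 of 9 was called higher, or 0 without the libraries that stood apart. After rescaling without mitochondrial genes 0 were higher and 1 was lower. The part of the amount of tendon in each dissected muscle in the tendon and collagen values was not tested.

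Genes for burning fat were lower in part. Fatty acids enter mitochondria through carnitine and are shortened by β-oxidation, the main fuel path of slow muscle. Of 25 genes of uptake and oxidation, 0 were higher and 15 lower (17.5% and 7.54% over all genes), with a median of -0.52. There were 17, 19 and 20 lower after the other scalings, 12 without the libraries that stood apart and 9 by the exact rank-sum test. Acot2, a mitochondrial acyl-CoA thioesterase, was at 11.3, 13.9, 8.98, 10.05 and 16.2 TPM against 34.2, 31.2, 34.3, 29.3 and 30.6 TPM (log2 fold change -1.36, SE 0.14, adjusted p 1.01e-04). Hadhb, the β subunit of the trifunctional enzyme of β-oxidation, was at 222, 173, 108, 189 and 246 TPM against 345, 319.9, 399, 345 and 368 TPM (log2 fold change -0.97, SE 0.19, adjusted p 0.00380). Neither overlapped between the groups. Fabp3, the muscle fatty acid carrier, fell to 1409–3917 TPM against 4311–6028 TPM (log2 fold change -0.88, adjusted p 0.0209). The α subunit Hadha and the carnitine carrier Slc25a20 fell by 0.81 and 0.42, and the uncoupling protein Ucp3 by 1.47 with overlap between the groups (adjusted p 0.0442). Fabp4, the carrier of adipocytes and capillaries, was at 549, 1223, 2744, 941 and 811 TPM against 1266, 712, 902, 575 and 1007 TPM and did not pass the test (adjusted p 0.565).

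The respiratory chain is encoded by both the mitochondrial and the nuclear genome. Of 13 mitochondrially encoded proteins 0 were higher and 9 lower as deposited (17.5% and 7.54% over all genes), with a median of -0.47. After median-ratio scaling and quantile normalization 8 and 3 were lower. The complex I subunit mt-Nd5 fell to 5090.5–8375 TPM against 11169–14316 TPM (log2 fold change -0.83, adjusted p 0.00273), and mt-Co1, of complex IV, by 0.51 (adjusted p 0.0290, and 0.0622 after median-ratio scaling). Of 39 nuclear genes of oxidative phosphorylation 3 were higher and 2 lower as deposited (17.5% and 7.54% over all genes), and 2 and 25 after rescaling without mitochondrial genes, so their direction depended on the scaling. Over all genes, that rescaling called 3714 of 11944, of which 914 were higher. Cox7b and Ndufb5, subunits of complexes IV and I, rose by 0.69 and 0.54 and kept their calls after median-ratio scaling and after rescaling without mitochondrial genes. Citrate cycle genes gave 1 higher and 4 lower of 20 (17.5% and 7.54% over all genes), with 0 and 11 after rescaling. Without the second cachectic library these counts were 1 and 1, and without both libraries that stood apart 1 and 2. Pdp1, the phosphatase that activates pyruvate dehydrogenase, fell to 19.9–32.9 TPM against 48.3–57.7 TPM (log2 fold change -0.90, adjusted p 5.67e-04). Of 15 regulators of mitochondrial biogenesis 1 was higher and 2 were lower (17.5% and 7.54% over all genes), with 4, 4 and 4 lower and 1, 1 and 0 higher after the other scalings.

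Of 25 genes of glycolysis and glycogen 6 were higher and 1 lower as deposited (beside 17.5% and 7.54% of all genes tested), against 3 and 5 after rescaling without mitochondrial genes. Ppp1r3c, which targets a phosphatase to glycogen and promotes its synthesis, was at 169, 344, 238, 179.99 and 339.8 TPM against 49.3, 88.5, 60.4, 89 and 107 TPM (log2 fold change 1.67, SE 0.25, adjusted p 0.00117). The basal glucose transporter Slc2a1 (GLUT1) rose by 1.01 (adjusted p 6.00e-04). Ldhb, the lactate dehydrogenase of oxidative muscle, fell to 582–1286 TPM against 1612–1786 TPM (log2 fold change -0.90, adjusted p 0.00458).

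Clock genes changed in part, and the hour of collection is not given in the sources used here. Of 18 tested, 3 were higher and 7 lower (17.5% and 7.54% over all genes). The activator Arntl (BMAL1), a gene of the block, rose by 0.98 (adjusted p 0.00692). The output factor Dbp was at 84.4, 60.6, 33.999, 103 and 56.5 TPM against 157, 115, 171, 162 and 168 TPM, and fell by 1.26 on the log2 scale (SE 0.25, adjusted p 0.00418). The repressors Ciart and Per3 fell by 1.16 and 0.74 (adjusted p 0.00645 and 0.00210). In the myostatin, activin and BMP list 2 of 23 genes were higher and 3 lower (beside 17.5% and 7.54% over all genes, or 6, 7 and 9 lower after the other scalings), with Smad3, which relays myostatin, lower by 0.62 and Smad1, which relays BMPs, higher by 0.47 (adjusted p 0.0163 and 0.00712). Smad3 lost its call without the libraries that stood apart (adjusted p 0.0891).

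Among the 15 highest and 15 lowest log2 fold changes of called genes with a mean of at least 5 TPM, 4 and 2 were predicted genes with placeholder names. Slc22a2, an organic cation transporter and a gene of the block, rose to 8.12–65.4 TPM against 0.415–3.81 TPM (log2 fold change 3.66, adjusted p 4.84e-04). Cwc22, a splicing factor of the block, rose to 37.9–75.1 TPM against 4.65–5.79 TPM, and Gdpd3, a phosphodiesterase of the block, was at 33.8, 28.2, 39.9, 0.731 and 32.9 TPM against 0.595–1.10 TPM, with the fourth cachectic library at the non-cachectic level. The histone gene Hist2h2aa2, one of several near-identical copies, had a log2 fold change of 3.60 (adjusted p 0.00703). Of all 70 called genes that changed by at least 2 on the log2 scale, 28 belonged to the block, which made up 1.92% of the genes tested.

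Among the lowest, Klhl33, a kelch protein of muscle, was at 13.5, 20.995, 7.48, 9.02 and 10.9 TPM against 50.7, 44.2, 50.2, 58.8 and 45.9 TPM (log2 fold change -2.004, SE 0.21, adjusted p 1.35e-04). Pde4a, which degrades cyclic AMP, was at 2.46, 1.79, 1.75, 1.85 and 1.60 TPM against 11.04, 10.2, 8.73, 9.45 and 8.57 TPM (log2 fold change -1.88, SE 0.10, adjusted p 6.23e-07). Bcl6b, a transcriptional repressor found in endothelium, fell to 1.40–3.66 TPM against 10.2–12.7 TPM (log2 fold change -1.98, adjusted p 2.48e-05). The groups did not overlap for any of them. The interferon-inducible GTPase listed as Gbp6_2 fell by 2.44 (adjusted p 0.00109), and BC048679 by 2.25. Gbp6_2 is one of a family of similar copies, so its value is uncertain.

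Whether the effect of the melanoma in soleus differed from that in other muscles was tested in 1 fit of 39 libraries, which also held 10 of tibialis anterior and 19 of mock-treated diaphragm. The difference between soleus and tibialis anterior, a fast muscle of the shin, was called for 2750 of 13501 genes (20.4%), where 170 log2 fold changes were higher and 2580 lower in soleus. After median-ratio scaling these counts were 1049 and 508, so the balance turned with the scaling. The difference between soleus and diaphragm was called for 340 genes (2.52%), 77 higher and 263 lower in soleus, or 329 and 170 after median-ratio scaling. The numbers in the column names recur across muscles, but the labels do not say that they mark animals, and the libraries were fitted without a link between muscles. When that number was added as a block, 346 higher and 5223 lower were called against tibialis anterior and 191 and 803 against diaphragm.

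A number of tendon genes fell further in soleus than in tibialis anterior and diaphragm. Of 22 such genes in this fit, 14 had a lower log2 fold change in soleus than in tibialis anterior and 11 than in diaphragm, and 0 a higher one, and after median-ratio scaling these were 8 and 10. Over all genes, 20.4% and 2.52% were called in these tests, and 11.6% and 3.72% after median-ratio scaling. For Cilp2 the log2 fold changes were -2.88, -0.82 and -0.34, in the order soleus, tibialis anterior and diaphragm, and soleus differed from tibialis anterior by -2.07 (adjusted p 2.19e-05) and from diaphragm by -2.54 (adjusted p 3.87e-08). For Tnmd they were -2.95, -1.27 and -0.41, with differences of -1.68 (adjusted p 0.0147) and -2.53 (adjusted p 3.35e-04). For Comp they were -2.02, 0.57 and 0.43, with differences of -2.59 (adjusted p 0.00142) and -2.46 (adjusted p 0.00221). For Col1a2 the differences were -1.94 and -1.95 (adjusted p 0.00513 and 0.00580).

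Load-sensing genes rose further in soleus in part. Of 20, 9 had a higher and 1 a lower log2 fold change in soleus than in tibialis anterior, and 6 a higher one than in diaphragm. After median-ratio scaling 11 and 8 were higher. Over all 13501 genes, 170 were higher and 2580 lower against tibialis anterior, and 77 higher against diaphragm. After median-ratio scaling 1049 and 329 of all 13411 genes were higher. Mybph changed by 3.99, -0.44 and 0.42 in soleus, tibialis anterior and diaphragm, differences of 4.42 (adjusted p 7.86e-04) and 3.57 (adjusted p 0.00563). Csrp3 changed by 1.94, -1.77 and 0.11 in the same order, and soleus differed from tibialis anterior (by 3.71, adjusted p 0.00217) but the test against diaphragm was not passed (by 1.84, adjusted p 0.173, or 0.0507 with the column number as a block). Cryab differed by 1.46 and 1.01 (adjusted p 0.00191 and 0.0378).

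The counts of autophagy, ligase and fatty acid genes moved with the scaling and with that number as a block. Autophagy genes had a lower log2 fold change in soleus than in tibialis anterior in 10 of 22 as deposited. The count was 2 after median-ratio scaling and 16 with the column number as a block. For ligases the counts were 8, 2 and 12 of 22. Over all genes they were 2580 of 13501, 508 of 13411 and 5223 of 13501. Against diaphragm the counts of lower genes over all genes were 263, 170 and 803. Fbxo32 changed by -0.27, 2.32 and 0.55 in soleus, tibialis anterior and diaphragm, a difference of -2.59 from tibialis anterior (adjusted p 0.00459). Stat3 changed by 1.15, 2.12 and 1.07 (difference -0.96, adjusted p 0.00412) and Eif4ebp1 by 0.95, 2.62 and 1.09 (difference -1.66, adjusted p 0.0206). Fatty acid genes were lower in soleus than in tibialis anterior in 9 and than in diaphragm in 5 of 26 genes (1 and 2 after median-ratio scaling, 13 and 12 with the column number as a block), with Acot1 at -1.34, 0.91 and 0.58 (adjusted p 0.00182 and 0.00800 for the 2 differences). The differences of Igfbp5 were -1.499 from tibialis anterior and -1.51 from diaphragm (adjusted p 0.0124 and 0.0169), and those of Klhl33 -1.65 and -1.60 (adjusted p 0.00338 and 0.00490). The rise of Slc22a2, a gene of the block, was larger in soleus by 3.64 and 2.55 (adjusted p 2.25e-04 and 0.00634). For Mt2 the log2 fold changes were 4.76, 7.52 and 4.22, and neither difference passed the test (adjusted p 0.0691 and 0.841), but the first did with the column number as a block (adjusted p 0.00635, and 0.742 for the second). Ribosomal and proteasome genes gave 0 calls by limma in the test of soleus against diaphragm (0 and 1 at an unadjusted p under 0.05) and 1 each against tibialis anterior. After median-ratio scaling, 5 of 31 proteasome subunits had a higher log2 fold change in soleus than in diaphragm, beside 329 of all 13411 genes. With the column number as a block, 13 of 33 ribosomal and 10 of 31 proteasome genes were lower than in tibialis anterior. Over all genes, 5223 of 13501 were lower in that test. A missed threshold does not show that they moved alike.

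**Figure D5:**
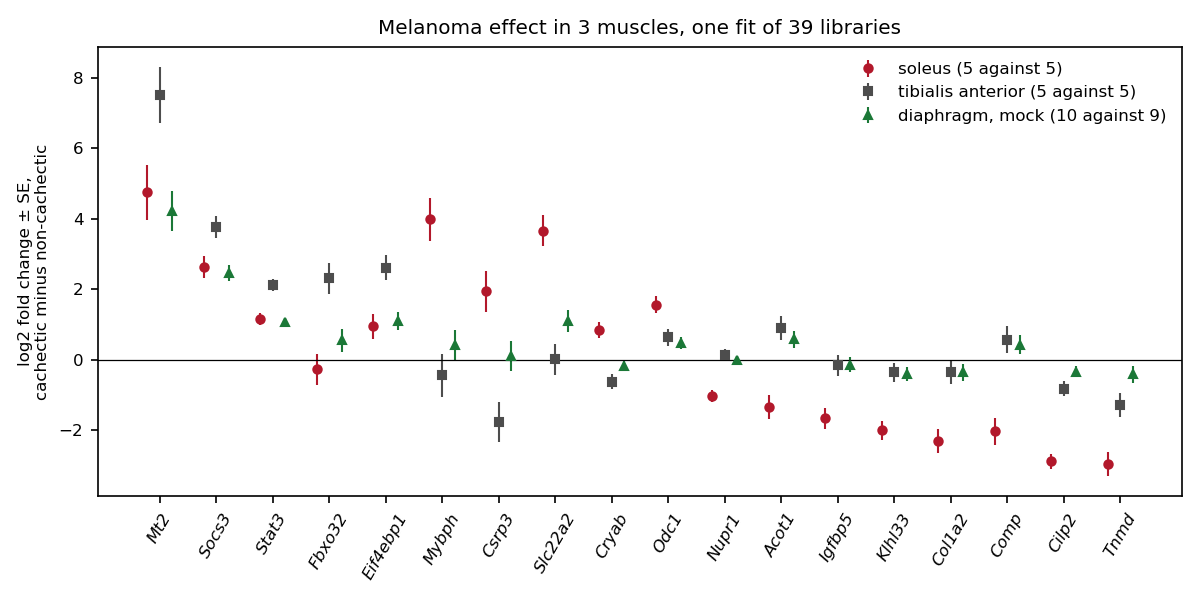
Log2 fold change between the melanomas (cachectic minus non-cachectic, with SE) of 18 genes in soleus (red circles), tibialis anterior (grey squares) and mock-treated diaphragm (green triangles), from 1 fit of 39 libraries. Tnmd, Comp, Cilp2 and Col1a2 lie lower in soleus than in both other muscles, and Mybph lies higher.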

How the data were processed

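Per the labels and the study's methods, the authors sequenced muscle RNA as paired-end reads, trimmed and filtered the reads and aligned them to the mouse genome GRCm38 (mm10) in CLC Genomics Workbench. Its RNA-Seq Analysis tool gave the deposited TPM values, 1 column per library, and the gene annotation is not given in the sources used here. Library kit and instrument differ between the labels and the methods, and the methods describe RNA of the diaphragm. The deposited TPM table holds no counts, so the depth of each library is unknown and no counting intervals are given. The soleus libraries had 17514 to 18191 genes above 0.

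Values were analysed as log2(TPM + 1) with limma 3.58.1 in R 4.3.3 (empirical Bayes with a trend), on genes with at least 1 TPM in at least 5 of the libraries fitted (fewer where libraries were left out, more in the diaphragm), with Benjamini-Hochberg adjustment over all genes tested. Fold changes on this scale understate those of low genes. The study compared its groups by Kruskal-Wallis and Dunn tests on log TPM, and an exact rank-sum test was run as an alternative. The script was tested on simulated data. Fits of the muscle differences held the soleus, tibialis anterior and mock-treated diaphragm libraries. The diaphragm block was fitted within its 4 groups, with Pcna-ps2 at 1 TPM or more as the dividing line. Promoter windows came from RefSeq (GRCm38.p6).

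The members, the 49 gene lists and the rules were chosen with earlier results of these data known. Genes were named if they were among the 15 highest or lowest log2 fold changes called at a mean of at least 5 TPM, the up to 4 most changed called or up to 2 most abundant further members of a list, a gene the study named for the melanoma model, Fibcd1, Itga2b or a listed myosin, and a subset of them is described. Actn3, Ankrd2, Flnc, Hadha, Lcn2, Mkx, Osmr, Per3, Pvalb, Rpl14, Rpl3l, Scx, Slc25a20, Stat3, Xirp1, Cxcl13, Saa1, Saa2, the neutrophil markers below the filter and Pcna-ps2 fall outside this rule and were chosen after their values were seen. The same holds for Cd8a, Cd79b and Ms4a1. The rFibcd1-treated diaphragm libraries entered only the diaphragm block. Column numbers do not match the replicate numbers of the labels, so libraries are known by group. Some genes are not reported here.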

Additional observations from a re-analysis of the deposited data

Results flagged for a closer look

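In 38 of 316 checks of a named gene within a group of 5, 1 library lay farther from the nearest other one than Dixon's 95% limit allows, where chance gives about 1 in 20. Of these, 28 fell in the cachectic and 10 in the non-cachectic group, 10 of them in the third and 8 in the fourth cachectic library. Values are TPM with the nearest other library of the group in parentheses, and the part of single libraries in the results was not tested beyond the values given without them. The first cachectic library was apart for Pde4a at 2.46 (1.85) and Slc30a4 at 6.71 (9.79, the lowest). In the second cachectic library the genes that stood apart were Actn3 at 2357 (34.03), Fbxo32 at 310.2 (143), Klf15 at 78.1 (55.7), Myh4 at 4989 (69.8), Pvalb at 1695 (28.7) and Trim63 at 598 (234). The third cachectic library held the highest values of Cfd at 4129 (908), Ctsz at 111 (64.7), Des at 10055 (5402), Hsd11b1 at 33.2 (11.6), Igfbp3 at 82.001 (31.2), Itga7 at 213 (135), Serpina3n at 784 (151), Slc39a14 at 48.7 (20.2), Slc3a2 at 69.2 (36.5) and Stat3 at 72.1 (51.4). In the fourth cachectic library they were Ankrd1 at 317 (133), Atf3 at 108 (53.5), Col1a1 at 62.1 (22.2), Col6a1 at 39.01 (20.1), Col6a2 at 19.2 (8.01), Cryab at 9385 (5964), Postn at 16.6 (6.60) and Rcan1 at 475 (293). The fifth cachectic library was apart for Lyz2 at 264 (96.5) and Nupr1 at 8.69 (6.24). Among non-cachectic libraries, the first was apart for Chrnb1 at 22.7 (27.01, the lowest), Rrad at 26.7 (10.5) and Txnip at 808 (365). The second non-cachectic library was apart for Comp at 41.3 (61.8, the lowest) and Dbp at 115 (157, the lowest). The third was apart for Glul at 207 (160.5). The fourth was apart for Actn3 at 27.2 (13.3) and Cox7b at 615 (665, the lowest). The fifth was apart for Hspa1b at 29.1 (14.4) and Xirp1 at 222 (151).

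The log2 fold change between the melanomas differed between soleus and another muscle, by limma on the difference itself with adjusted p under 0.05, for 14 of the genes whose differences are described. The difference (soleus minus tibialis anterior, then soleus minus diaphragm) passed in both tests for Acot1 (-2.25 and -1.92), Cilp2 (-2.07 and -2.54), Col1a2 (-1.94 and -1.95), Comp (-2.59 and -2.46), Cryab (1.46 and 1.01), Igfbp5 (-1.499 and -1.51), Klhl33 (-1.65 and -1.60), Mybph (4.42 and 3.57), Slc22a2 (3.64 and 2.55) and Tnmd (-1.68 and -2.53), and in the test against tibialis anterior alone for Csrp3 (3.71), Eif4ebp1 (-1.66), Fbxo32 (-2.59) and Stat3 (-0.96). Their adjusted p-values stand with the muscle comparison, and the balance of such calls over all genes turned with the scaling.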

How the results depend on the processing

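The number of genes called in soleus stayed between 2131 and 3844 when single libraries were left out, and between 2190 and 3714 under other pseudocounts, filters, scalings, weights and tests, in a fit of 39 libraries and without both libraries that stood apart. The thresholds of the study (unadjusted p under 0.01, log2 fold change over 1) gave 406. The mitochondrial difference stayed between -11.7 and -9.03 percentage points. The difference from tibialis anterior was called for 1557 genes after median-ratio scaling and for 1608–3995 with single libraries left out, with 1664 without the first cachectic soleus library and 1608 without the third cachectic tibialis anterior library. The difference from diaphragm was called for 741 genes with array weights and for 204–613 with single libraries left out, with 225, 213, 220 and 204 without the first, the third, the fourth and the fifth non-cachectic soleus library, 220 without the second cachectic soleus library and 613 without the third cachectic tibialis anterior library. With the column number, which muscles share, as a block, 5569 and 994 genes were called. That block and the fits without both libraries that stood apart were added after the data were seen, and the cause of these shifts was not tested. No paired analysis was possible because the soleus columns do not carry the replicate numbers of the labels and no number is shared between the groups. Over 158 named genes and 3154 recomputed values, 2980 stayed on their side of the threshold, 155 lost the call, 19 gained one, and no called value changed direction. Of 130 called genes, 95 were called under every alternative run for single genes. Of 98 counts of list members called (49 lists, higher and lower apart), between 0 with the smaller pseudocount and 40 without mitochondrial genes moved by over 1.5 times.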
